A study of Mus musculus with 4 samples.

Results

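The genes described here are the replication-dependent histone genes of the mouse, chosen as the gene symbols that begin with Hist1h, Hist2h, Hist3h or Hist4h. They were 67 of the 32285 genes in the count tables, with 6 linker histone H1 genes, 18 H2A, 18 H2B, 12 H3 and 13 H4 genes. Their mRNA was counted in draining lymph node cells of wildtype C57BL/6 mice, in 2 Control and 2 EV libraries, by a droplet method that primes on poly(A) and tags each mRNA molecule with a unique molecular identifier (UMI). EV mice were injected under the skin with 100 µg of iPSC EVs, the small membrane vesicles shed by induced pluripotent stem cells, Control mice with PBS, and nodes were taken at 5 days. The sample labels instead give 24 h for every library and no treatment for the Control libraries. No transgene or deletion is named for any library, and the sources used here do not state how many mice contributed to each library. The question addressed by the comparison is how the vesicles alter the immune cells of the node, read here through histone mRNA.

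Replication-dependent histone genes supply the proteins that package newly copied DNA. H2A, H2B, H3 and H4 form the nucleosome core and H1 binds the linker DNA between nucleosomes. Their mRNA is known to accumulate during S phase and to be degraded when replication ends. In most metazoan cells this mRNA ends just past a conserved stem-loop bound by SLBP and carries no poly(A) tail, although polyadenylated forms are known in non-dividing and differentiating cells. Replication-independent histones such as H3.3 (H3f3a and H3f3b) and H2A.Z (H2afz) are made throughout the cell cycle from ordinary polyadenylated mRNA.

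Of the 67 genes, 54 lay on chromosome 13, 10 on chromosome 3, 2 on chromosome 11 and 1 on chromosome 6, and 62 were annotated with a single exon (GENCODE M21, GRCm38, the assembly named mm10 in the study). The stem-loop was found in an annotated transcript of 46 genes, and its most frequent form, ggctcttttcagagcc, was shared by 26 of them. The stem-loops below belong to the genes that the results turn on and are shown because they mark where the tail-less form of each mRNA would end. Capitals mark the 16-base stem-loop, with 5 bases on either side, read 5′ to 3′ on the gene's own strand as DNA.
Hist1h1e: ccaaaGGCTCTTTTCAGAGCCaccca
Hist2h2ac: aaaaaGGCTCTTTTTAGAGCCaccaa
Hist1h2be: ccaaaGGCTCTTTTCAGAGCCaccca
Hist1h3e: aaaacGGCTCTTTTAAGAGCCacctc
Hist1h4c: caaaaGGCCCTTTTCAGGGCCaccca
Hist1h4d: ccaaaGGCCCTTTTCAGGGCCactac
Hist1h4h: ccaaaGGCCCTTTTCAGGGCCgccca
Hist1h4i: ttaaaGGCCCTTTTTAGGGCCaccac
The form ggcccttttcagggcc was found in 7 genes, all of type H4. No stem-loop of this kind was found in the annotated transcripts of Hist1h1b (743 bases) and Hist1h2bc (1156 bases). Some of the 21 genes without one have short annotated transcripts, such as Hist1h4k with 312 bases and Hist1h2bl with 381. A transcript annotated only up to a point before the stem-loop could not show it. Its absence here thus does not show that an mRNA has none. Annotated transcripts ran on past the stem-loop by 46 bases in Hist1h4h, 57 in Hist2h2ac, 330 in Hist1h4i, 369 in Hist1h3e, 454 in Hist1h4c, 770 in Hist1h4d, 1153 in Hist1h1e and 1861 in Hist1h2be. A polyadenylation signal (AATAAA or ATTAAA) lay in the last 50 bases of an annotated transcript of 17 genes, including Hist1h2ae, Hist1h2be, Hist1h4h and Hist1h4i among those named here, and of none in the other 50.

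RefSeq promoters (GRCm38.p6, 250 bases before to 50 after the start) were matched for 62 genes. The letters TATAAA, on either strand, were in 46.8% of them and in 12.4% of all 32851 promoters, CCAAT in 82.3% against 33.8%, and the octamer core ATTTGCA in 13 of 62 against 3.56% of all. None of these motifs contains another. The types differed: CCAAT was present for all 6 H1, 18 H2A and 16 H2B promoters but for 3 of 12 H4 promoters, and ATTTGCA was found for 7 H2A and 6 H2B genes and for no H1, H3 or H4 gene. Some H2A and H2B genes on opposite strands have overlapping promoters, as Hist1h2ae and Hist1h2bg do. The same site can then count for both genes, so these promoters are not independent. The 120 bases before the start are shown for an H1, an H2A and an H4 gene whose mRNA levels are followed below, with TATAAA and CCAAT in capitals on whichever strand they lie.
Hist1h1b, chr13:21780626-21780745, minus strand: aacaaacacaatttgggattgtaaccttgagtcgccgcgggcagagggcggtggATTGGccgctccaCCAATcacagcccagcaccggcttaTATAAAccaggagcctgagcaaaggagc
Hist2h2ac, chr3:96220881-96221000, minus strand: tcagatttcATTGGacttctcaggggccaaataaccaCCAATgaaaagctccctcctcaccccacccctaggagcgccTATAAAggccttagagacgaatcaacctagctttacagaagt
Hist1h4d, chr13:23581448-23581567, plus strand: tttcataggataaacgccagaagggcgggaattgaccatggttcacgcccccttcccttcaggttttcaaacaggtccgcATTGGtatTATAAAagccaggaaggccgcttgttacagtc
The H1 and H2A stretches each hold CCAAT on both strands and TATAAA, and the H4 stretch holds CCAAT on the opposite strand beside TATAAA.

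The libraries held 50749656 to 70418672 UMIs, and 7974 to 8763 cells per library had at least 200 genes and under 10% mitochondrial UMIs. Cells with no UMI of Mki67 or Top2a, genes of proliferating cells, were called non-cycling and split by UMIs of Cd79a, Cd3e, Cd4 and Cd8a. B cells numbered 2945 and 2417 in Control libraries 1 and 2 and 4714 and 4193 in EV libraries 1 and 2. CD4 T cells numbered 877 to 1558 and CD8 T cells 973 to 1801 per library. Cells with at least 2 such UMIs were called cycling and numbered 92 and 125 for Control and 206 and 227 for EV. As a check of the gates on markers that did not set them, the 5 T cell genes Cd3d, Cd3g, Trac, Lat and Lck summed to at least 2632 CPM (UMIs per 1000000 UMIs of the class) in the T cell classes and at most 71.7 CPM in B cells. Any pair of libraries shared 12 to 26 of the 8297 to 9000 cell barcodes a library held.

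Histone mRNA was measured in every class, and different genes led it in resting and in cycling cells. Non-cycling B cells were led by Hist1h1e, which made up 24.6% of their histone UMIs, and Hist1h1c with 11.3%. Hist1h1e and Hist1h1c, genes of somatic H1 subtypes, also led CD4 T cells (19.1% and 15.2%) and CD8 T cells (3037 and 3222 of the histone UMIs). Cycling cells were led by Hist1h1b, another H1 gene, with 29.9% of their histone UMIs over the pooled libraries and 21% to 34.4% in each. The genes after it had no fixed order, with 7.41% to 10.4% over the libraries for Hist1h1e, 6.39% to 7.94% for Hist1h2ae and 3.26% to 11% for Hist1h4d. Hist1h2aa and Hist1h2ba, genes known from the male germ line, had no UMI in the 4 classes, and 3 other genes, among them the testis gene Hist1h1t, had 1 UMI each. The other 62 genes had from 38 to 19353 UMIs. Counts are of the 3′ ends that were primed, so these shares are not copies of full-length mRNA per cell.

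**Figure D1:**
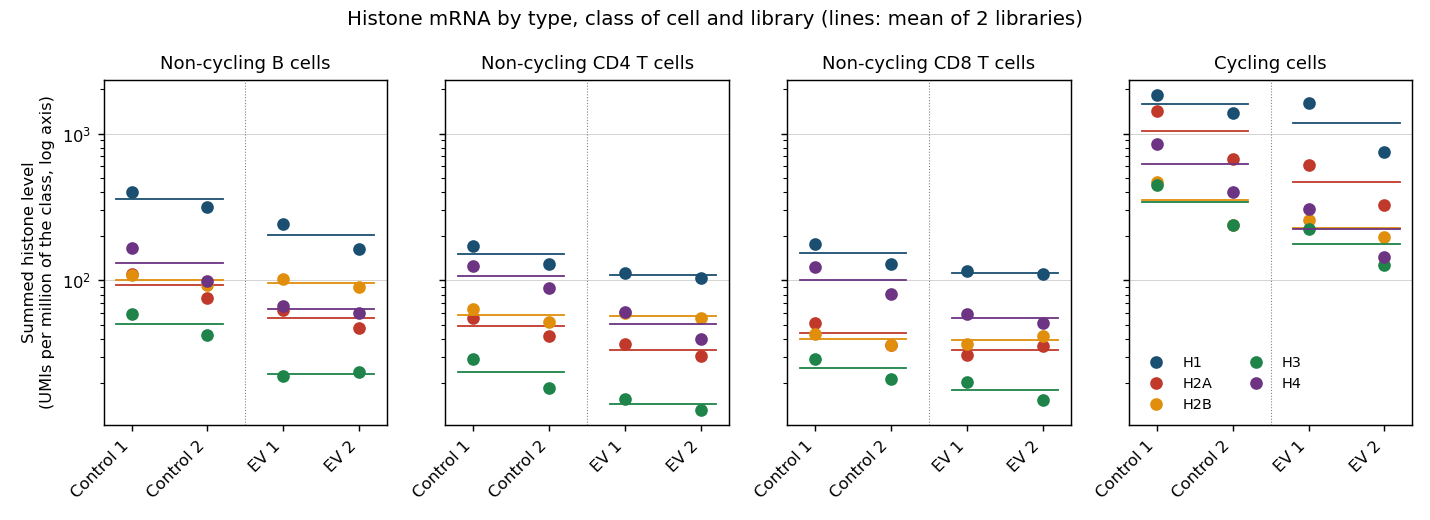
Summed level of the histone genes of each type (y axis, CPM, log axis) in each library (x axis) for 4 classes of cell; points are libraries and lines the means of the 2 Control and the 2 EV libraries. In B cells H1, H2A, H3 and H4 lay lower in both EV than in both Control libraries, and H2B overlapped between the groups.

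In non-cycling B cells the sum over all 67 genes was 844 and 627 CPM in Control libraries 1 and 2 and 497 and 384 CPM for EV 1 and 2. Each EV library lay below each Control library, and the EV mean was 59.9% of the Control mean. Both EV libraries were also deeper, with medians of 5798 and 5604 UMIs per B cell against 4128 and 4894 in Control. Depth and treatment thus went together in this class. The type sums include every gene, detected or not, and carry no test of their own, since 2 libraries against 2 allow no p below 0.33 in an exact permutation test (two-sided). They were not equal across types. H3 was 50.6 ± 11.9 CPM for Control and 23.0 ± 0.99 CPM for EV (mean ± SD, n = 2), a log2 difference of -1.14. H4 stood at 132 ± 47.4 and 63.7 ± 4.8 CPM (-1.05), H1 at 359 ± 58.6 and 202 ± 55.8 CPM (-0.82), and H2A at 93.5 ± 25.2 and 55.2 ± 11.4 CPM (-0.76). For these 4 types the groups did not overlap. H2B was 101 ± 10.8 CPM for Control and 96.1 ± 9.46 CPM for EV, and its groups overlapped. This holds for the H2B sum and not for each H2B gene, as given below. Markers of other cell types also differed in these B cells: 6 macrophage genes summed to 42.3 and 40.2 CPM for Control and 112 and 77.6 CPM for EV, and the 5 T cell genes to 71.7 and 63.3 CPM and to 39.5 and 42.7 CPM. All members of both lists were detected, and their part in the histone values was not tested.

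Gene by gene, 47 of the 67 histone genes had enough counts in B cells to be tested, and 4 were called lower in EV (edgeR's quasi-likelihood test, two-sided, Benjamini-Hochberg adjusted p under 0.05 over 13237 genes), where 1.04% of all genes tested were called lower. None was called higher, against 1.8% of all genes. The 4 were the H3 gene Hist1h3e and the H4 genes Hist1h4c, Hist1h4d and Hist1h4h, all on chromosome 13. Each EV library lay below each Control library for 33 of the 47, against 26.2% of all genes tested. Both lay above for 1, against 26% of all genes tested. The median log2 fold change of the 47 was -0.86, and that of all genes tested was 0.00. The genes that passed were not all members, since 3 had no UMI in this class and 17 had too few. For 27 of the 67 genes more than 50% of the 90-base stretches of their transcripts also occur in other genes, so the counting could have split or dropped their reads.

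Hist1h4d (chr13:23581598-23582735, plus strand, 1 exon) is an H4 gene with little shared sequence, since only 0.858% of its 90-base stretches occur in another gene. Its level, in TMM-scaled CPM as for all single genes in the EV comparisons, was 72.8 and 44.5 for Control and 24.8 and 11.9 for EV. The EV libraries were both lower, EV library 2 most of all, and the difference passed the test (log2 fold change -1.67 with SE 0.31, edgeR adjusted p = 0.0303). Hist1h4h (chr13:23531050-23531519, plus strand) stood at 14.6 and 7.82 CPM for Control and 4.12 and 2.46 CPM for EV (log2 fold change -1.76 with SE 0.32, edgeR adjusted p = 0.0283). Hist1h4c (chr13:23697635-23698454, minus strand) stood at 22.1 and 10.6 CPM and at 5.93 and 5.59 CPM (log2 fold change -1.50, SE 0.29, edgeR adjusted p = 0.031). For both genes Control library 1 lay farther from Control library 2 than Control library 2 lay from either EV library. Hist1h3e (chr13:23561534-23562369, minus strand) was at 25.8 and 18.5 CPM for Control and 8.61 and 6.42 CPM for EV, with no overlap (log2 fold change -1.55, SE 0.19, edgeR adjusted p = 0.00563). It shares 50.2% of its 90-base stretches with other genes. Without Control library 1, Hist1h3e was still called (adjusted p = 0.011) and the 3 H4 genes were not (adjusted p = 0.0816 for Hist1h4c, 0.064 for Hist1h4d and 0.0945 for Hist1h4h), with log2 fold changes reduced to -0.87, -1.25 and -1.24. Leaving out Control library 1 gave 1 histone gene called (0.91% of all genes tested were called in either direction), Control library 2 gave 15 (2.34%), EV library 1 gave 17 (19.7%) and EV library 2 gave 20 (9.88%), of which 1, 15, 15 and 18 were lower. Without the filter on low counts, 23 histone genes were called in either direction in B cells, beside 1415 of all 21574 genes tested. The same count was 7 in CD4 T cells (665 of 19871) and 10 in CD8 T cells (829 of 20162). In cycling cells it was 20 (1411 of 18607). Called lower were 2.5%, 1.6%, 2.1% and 2.96% of all genes in these 4 classes. DESeq2 called 5 histone genes in B cells but gave Hist1h4d an adjusted p of 0.12. The share of all genes that DESeq2 called there is not given, so the 5 is not read against a background.

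The H1 genes followed the same order of libraries without passing the test. Hist1h1e (chr13:23620629-23622558, minus strand), the histone gene with the most UMIs in B cells, was at 216 and 173 CPM for Control and 133 and 68.1 CPM for EV (log2 fold change -0.95, SE 0.25, edgeR adjusted p = 0.089). Its annotated span overlaps that of Hist1h2be on the same strand, so reads there may have been left uncounted or shared. Hist1h1b was at 44.0 and 39.2 CPM and at 27.0 and 14.3 CPM (log2 fold change -1.01, SE 0.24, edgeR adjusted p = 0.0605). Each EV library lay below each Control library for all 5 H1 genes tested, against 26.2% of all genes tested. Among H2A genes, Hist2h2ac (chr3:96220361-96220880, minus strand) was at 20.6 and 16.5 CPM and at 11.8 and 5.32 CPM (log2 fold change -1.10, SE 0.30, edgeR adjusted p = 0.0889), and Hist1h2ae at 16.1 and 11 CPM and at 8.85 and 4.58 CPM (log2 fold change -1.01, SE 0.29, edgeR adjusted p = 0.105). Hist1h3a was at 8.69 and 8.59 CPM for Control and 5.03 and 6.02 CPM for EV (log2 fold change -0.65, SE 0.17, edgeR adjusted p = 0.0868).

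The H2B sum included genes with many UMIs whose levels overlapped between the groups. Hist1h2bc (chr13:23684199-23692908, plus strand, 2 exons) was at 35.3 and 28.1 CPM for Control and 42.3 and 27.7 CPM for EV. Hist1h2be (chr13:23583670-23621124, minus strand) was at 32.8 and 30.6 CPM and at 32.0 and 39.8 CPM. Their log2 fold changes were 0.14 (SE 0.19) and 0.18 (SE 0.12), with edgeR adjusted p = 0.722 and 0.456. Of the 12 H2B genes tested, 8 had a negative log2 fold change (50% of all genes tested). Both EV lay below both Control libraries for 6 of them (26.2% of all genes tested). The median log2 fold change of the 12 was -0.67, as it was for the 5 H1 genes tested. Medians were -0.98 for H2A, -1.03 for H3 and -0.71 for H4 genes. The near-equal H2B sum in B cells thus did not describe most H2B genes tested. In CD4 and CD8 T cells the H2B medians were -0.0042 and 0.085. The H4 gene Hist1h4i was at 16.3 and 11.4 CPM and at 13.2 and 11.8 CPM (log2 fold change -0.15, SE 0.17, edgeR adjusted p = 0.656), so the H4 genes did not share 1 pattern. Only Hist2h3c1, an H3 gene with 43 UMIs in all and noticed after its values were seen, had both EV libraries higher (0.22 and 0.31 CPM for Control, 0.67 and 0.63 CPM in EV, edgeR adjusted p = 0.238).

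**Figure D2:**
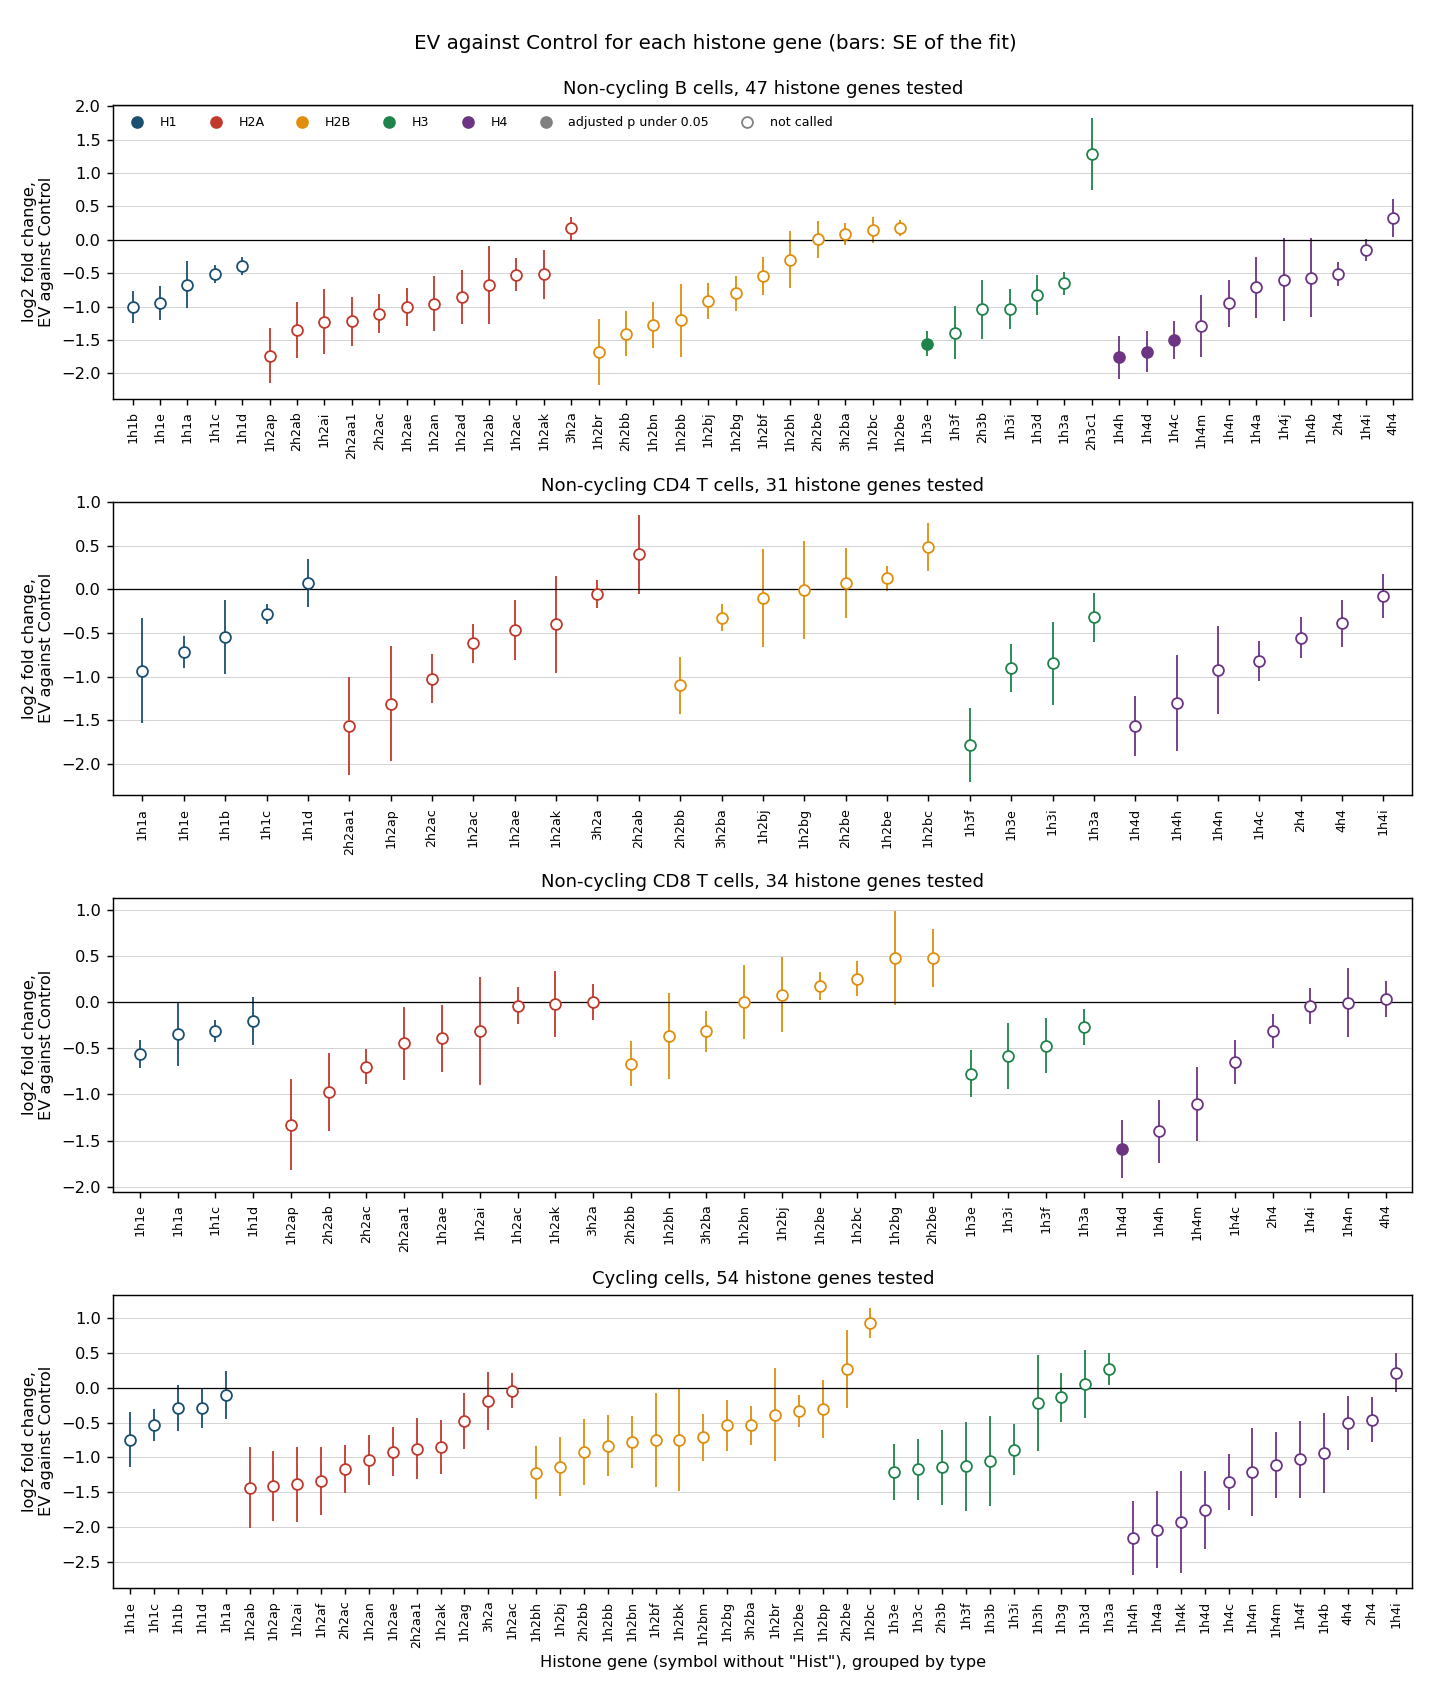
Log2 fold change of EV against Control (y axis, bars are the SE of the edgeR fit) for each histone gene tested (x axis, by type) in 4 classes; filled points are called at an adjusted p under 0.05. The filled points are Hist1h3e, Hist1h4c, Hist1h4d and Hist1h4h in B cells and Hist1h4d in CD8 T cells.

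In non-cycling CD4 T cells the 67 genes summed to 445 and 331 CPM for Control and 286 and 242 CPM for EV, 68.0% of the Control mean. Median depth here was 6019 and 6947.5 UMIs per cell in Control and 8230 and 7491 in EV libraries. With cells thinned as for B cells, 35.6% and 24.7% held histone UMIs in Control and 25.5% and 21.9% in EV libraries. These shares overlapped, unlike the sums. H4 was again lower in both EV libraries, at 125 and 88.9 CPM for Control and 61.2 and 40.0 CPM in EV (log2 difference -1.08). H3, H2A and H1 also did not overlap (log2 differences -0.73, -0.53 and -0.48), and H2B did (63.5 and 52.2 CPM against 59.9 and 55.1 CPM). Of 31 genes tested, 0 were called by edgeR in either direction, where 0.0844% of all 11851 genes tested were called lower and 0.397% higher. At an unadjusted p under 0.05, 12 of the 31 were lower (7.34% of all genes tested) and none higher. DESeq2 called 1 histone gene and 138 of all genes. Leaving out 1 library in turn moved the log2 difference of H4 between -1.42 and -0.81 and that of H1 between -0.67 and -0.27. Each EV library lay below each Control library for 16 of the 31, against 24.2% of all genes tested. Hist1h4d was at 63.4 and 46.0 CPM and at 27.8 and 10.1 CPM (log2 fold change -1.56, SE 0.34, edgeR adjusted p = 0.0995), and its log2 fold change was -2.41 without EV library 1 and -0.96 without EV library 2. Hist1h2bc was at 14.1 and 9.89 CPM for Control and 21.7 and 12.0 CPM for EV, which overlapped.

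In non-cycling CD8 T cells the sums were 422 and 304 CPM for Control and 262 and 255 CPM for EV, 71.3% of the Control mean. Median depth here was 7381 and 8536 UMIs per cell in Control and 9908 and 9061 in EV libraries. H4 stood at 123 and 80.1 CPM against 59.1 and 51.3 CPM (log2 difference -0.88), H3 at a log2 difference of -0.51, H1 at -0.43 and H2A at -0.40, all without overlap, and H2B overlapped (-0.02). Of 34 genes tested, 1 was called, Hist1h4d, which was lower in EV, where 0.433% of all 12227 genes tested were called lower and 0.924% higher. At an unadjusted p under 0.05, 11 of the 34 passed, with 8.65% of all genes tested lower at that p. Hist1h4d was at 53.2 and 35.6 CPM for Control and 22.3 and 7.94 CPM for EV (log2 fold change -1.59, SE 0.32, edgeR adjusted p = 0.039). It was called without any one of the 4 libraries, though its log2 fold change ranged from -2.46 to -0.98, and DESeq2 gave it an adjusted p of 0.548. Each EV library lay below each Control library for 15 of the 34 genes, against 25.3% of all genes tested. Leaving out 1 library in turn moved the log2 difference of H4 between -1.15 and -0.54 and that of H1 between -0.64 and -0.19. Hist1h2bc was slightly higher in both EV libraries (5.89 and 5.51 CPM against 7.37 and 6.29 CPM, edgeR adjusted p = 0.508).

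Whether the EV difference itself differed between B and CD4 T cells was tested with the library as a block. Of 43 histone genes tested, 0 differed at an adjusted p under 0.05 by edgeR, where 1.12% of all genes tested did, and 8 did at an unadjusted p under 0.05. Between CD8 and CD4 T cells 0 of 36 differed (background 0.174%), with 2 at an unadjusted p under 0.05. The shares of all genes at that unadjusted p are not given, so the 8 and the 2 are not read against a background. Hist1h3e had the smallest unadjusted p between B and CD4 T cells, with a log2 fold change lower by 0.68 in B cells (difference -0.68, SE 0.21, edgeR adjusted p = 0.229).

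Because oligo(dT) primes on A-rich sequence, the histone genes were also summed by whether an annotated transcript carries a polyadenylation signal near its end. In B cells the 17 genes with a signal summed to 236 and 180 CPM for Control and 173 and 163 CPM for EV, 80.8% of the Control mean. The 50 genes without a signal summed to 609 and 447 CPM and to 324 and 221 CPM, 51.7% of the Control mean. Neither set overlapped between the groups, and genes with a signal took 27.9% and 28.6% of histone UMIs in Control and 34.8% and 42.4% in EV libraries. The same 2 values were 83.1% and 59.5% of the Control mean in CD4 T cells and 83.8% and 63.7% in CD8 T cells. In cycling cells they were 58.8% and 57.4%, with the genes without a signal overlapping between the groups, so the sets did not separate there. In B cells each sum leaned on an H1 gene: Hist1h1e had the most UMIs without a signal and Hist1h1c the most with one. Taken by gene there, the median log2 fold change was -0.33 over the 14 genes tested with a signal. It was -0.95 over the 33 tested without one. The split was not clean by gene: Hist1h4h, with a signal, was called lower in B cells, and Hist1h2bc, without one, was not. It also depends on where the annotated transcripts end. That of Hist1h4k, without a signal, has 312 bases and no stem-loop. Those of Hist1h1d, Hist1h2ac and Hist1h2bh hold AATAAA past the stem-loop but not in the last 50 bases. Lack of an annotated signal therefore does not show that an mRNA has no poly(A) tail.

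**Figure D3:**
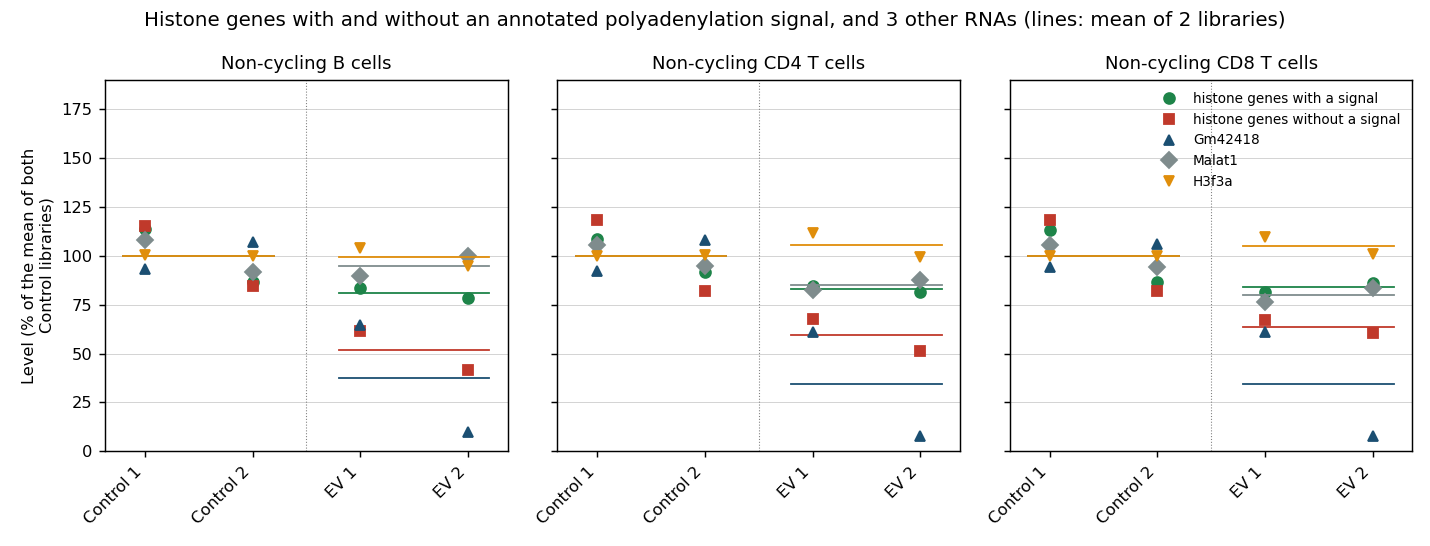
Levels in each library as a percent of the mean of both Control libraries (y axis) for the 17 histone genes with and the 50 without an annotated polyadenylation signal (summed CPM), and for Gm42418, Malat1 and H3f3a (TMM-scaled CPM), in 3 non-cycling classes; lines are the means of 2 libraries. Both sets of histone genes and Gm42418 lay lower in both EV libraries, the genes without a signal by more than those with one. For genes with a signal in CD8 T cells the gap was narrow (118 CPM in Control library 2, 117 CPM in EV library 2). Gm42418 was lowest in EV library 2, and H3f3a lay near the Control mean.

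Some RNAs from other loci were also lower in the EV libraries, though none of those followed here was called in B or CD4 T cells. Gm42418, a locus that overlaps ribosomal RNA sequence, stood in B cells at 8277 and 9509 CPM for Control and 5764 and 867 CPM for EV (log2 fold change -1.42, SE 0.64, edgeR adjusted p = 0.267). EV library 2 was the lowest by far, and of the Control libraries the second was higher, unlike in the histone sums. AY036118, of the same kind, was at 764 and 652 CPM and at 431 and 45.1 CPM. Malat1, a nuclear RNA whose 3′ end is a triple helix and not a poly(A) tail, overlapped between the groups (23425 and 19908 CPM against 19372 and 21608 CPM, log2 fold change -0.08). They were followed in a list of 8 loci that holds Gm42418, AY036118, Malat1 and Neat1 and, chosen because they moved with these in earlier results of the same data, Cmss1, Cdk8, Lars2 and Camk1d, so its direction is not independent evidence. All 8 had a negative log2 fold change (50%, 49.8% and 50.2% of all genes tested) in B, CD4 and CD8 T cells, with a median of -1.29, -1.38 and -1.38. Cdk8 was called lower in CD8 T cells (log2 fold change -1.76, edgeR adjusted p = 0.0446), and no other member of the list was called in these classes. The part of tail-less or internally primed RNA capture in the lower histone counts was not tested.

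Histone genes listed as replication-independent gave other values as a set, though not every member did. Of 11 replication-independent histone genes 10 were tested in B cells and 0 were called by edgeR, with 2 at an unadjusted p under 0.05 and a median log2 fold change of 0.06. H3f3a was at 2508 and 2493 CPM for Control and 2605 and 2366 CPM for EV (log2 fold change -0.01, SE 0.13), and H2afz at 160 and 163 CPM and at 184 and 166 CPM (0.12, SE 0.09). H3f3b was at 1817 and 1539 CPM and at 1529 and 1186 CPM (-0.31, SE 0.16, edgeR adjusted p = 0.32). Of 17 measured genes for processing or decay of histone mRNA, 0 of 17 were called in B cells by edgeR (2 at an unadjusted p under 0.05, median 0.05). Slbp, the stem-loop binding protein, was at 65.6 and 57.8 CPM and at 68.2 and 73.4 CPM (0.20, SE 0.10). Of 21 histone chaperone genes, whose proteins deliver histones to DNA, 0 were called in B cells by edgeR (2 at an unadjusted p under 0.05, median 0.01). By edgeR none of these 3 lists had a called gene in CD4 T cells (3, 4 and 4 genes at an unadjusted p under 0.05) or CD8 T cells (3, 3 and 2). The share of all genes at that unadjusted p in either direction is not given, so these unadjusted counts are not read against a background. The 20 genes of an S phase list summed to 320 to 340 CPM in B cells, with overlapping groups.

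In cycling cells the histone level was several times higher and more uneven. The 67 genes summed to 5000 and 2922 CPM in Control libraries 1 and 2 and 3022 and 1544 CPM for EV 1 and 2, which overlapped. H4 was at 843 and 397 CPM for Control and 306 and 144 CPM for EV (log2 difference -1.46), H2A at 1425 and 672 CPM and at 614 and 328 CPM (-1.15), and H3 at 443 and 240 CPM and at 225 and 128 CPM (-0.96). H1 and H2B overlapped (-0.43 and -0.64). Of 54 genes tested 0 were called by edgeR, where 1.33% of all 10934 genes tested were called lower and 1.82% higher. At an unadjusted p under 0.05, 18 were lower and 1 higher (10.6% of all genes tested were lower). DESeq2 called 1 histone gene, and the share of all genes it called is not given. Leaving out 1 library in turn moved the log2 difference of H4 between -2.11 and -0.82 and that of H1 between -1.10 and 0.02. Each EV library lay below each Control library for 23 of the 54, against 26.1% of all genes tested.

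By gene, Hist1h4h was at 102 and 34.8 CPM in cycling cells of the Control and 21.1 and 8.87 CPM of the EV libraries (log2 fold change -2.15, SE 0.53, edgeR adjusted p = 0.0714). Hist1h4d was at 542 and 262 CPM and at 187 and 50.9 CPM (-1.75, SE 0.56, adjusted p = 0.128). With single libraries removed in turn, Hist1h4h ran from -2.89 (without EV library 1) to -1.21 (without Control library 1) and Hist1h4d from -2.97 (without EV library 1) to -1.10 (without EV library 2). Hist1h1b, at 1039 and 829 CPM and at 1053 and 465 CPM, overlapped between the groups. Hist1h2bc went the other way, at 22.1 and 17.1 CPM for Control and 36.7 and 37.0 CPM for EV (log2 fold change 0.93, SE 0.21, edgeR adjusted p = 0.0603), but at -0.02 with the study's cell filter. The difference of the EV effect between cycling cells and B cells was called by edgeR for 0 of 61 histone genes, where 1.2% of all genes tested were called, with 5 at an unadjusted p under 0.05. Of these, Hist1h1b had the smallest p, with a log2 difference higher by 0.77 in cycling cells (SE 0.15, adjusted p = 0.0536). In cycling cells H3f3a was called higher in EV (1272 and 1325 CPM for Control, 2064 and 1879 CPM for EV, log2 fold change 0.60, SE 0.12, edgeR adjusted p = 0.0371), and none of the S phase list was called, with 11 of 20 at an unadjusted p under 0.05 and a median log2 fold change of 0.41. The share of all genes at that unadjusted p, in either direction, is not given for the 11 or the 5. Neither count is thus read against a background.

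The cycling cells were not of the same make-up in both groups. Cells with Cd79a and no Cd3e were 16.3% and 28.0% of cycling cells in Control and 51.0% and 41.0% in EV libraries, and cells with Cd3e and no Cd79a were 63.0% and 56.8% against 26.7% and 39.2%. Plasma cell genes (Jchain, Xbp1, Sdc1, Prdm1 and Mzb1) summed to 749 and 444 CPM in cycling cells of Control and 1306 and 1394 CPM of EV libraries, and 6 germinal centre B cell genes to 129 and 189 CPM against 435 and 466 CPM. Median depth was 10483 and 11739 UMIs per cycling cell in Control and 16198 and 20508 in EV libraries. With every cell thinned to 1000 UMIs, 1 histone gene and 30 of all genes were called in cycling cells. The comparison was also repeated within each lineage, an alternative added after the data were seen. Cycling B cells had 5653 and 2734 CPM of histone mRNA in Control and 3574 and 1767 CPM for EV, and cycling T cells 5787 and 3020 CPM against 3059 and 1323 CPM, so that the sums overlapped in either lineage. Cycling B cells numbered 15 and 35 in Control and 105 and 93 in EV, and 10 cells held 99.0% of their histone UMIs in Control library 1. The plasma cell genes stood at 6501 CPM in cycling B cells of that library and at 2193 to 2726 CPM in the others, and the part of this difference was not tested. Cycling cells with UMIs of both Cd79a and Cd3e, which may be doublets, numbered 9 and 11 in Control and 20 and 29 in EV libraries. H4 was lower in both EV libraries in both lineages (989 and 382 against 327 and 144 CPM in B cells, 946 and 403 against 356 and 145 CPM in T cells). By edgeR, 0 histone genes were called in either, where 0.112% (B) and 0.0227% (T) of all genes tested were called lower. With a stricter gate of 4 UMIs of Mki67 and Top2a, 12 histone genes were called in either direction. So were 679 of all 10082 genes tested, with 3.32% called lower.

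**Figure D4:**
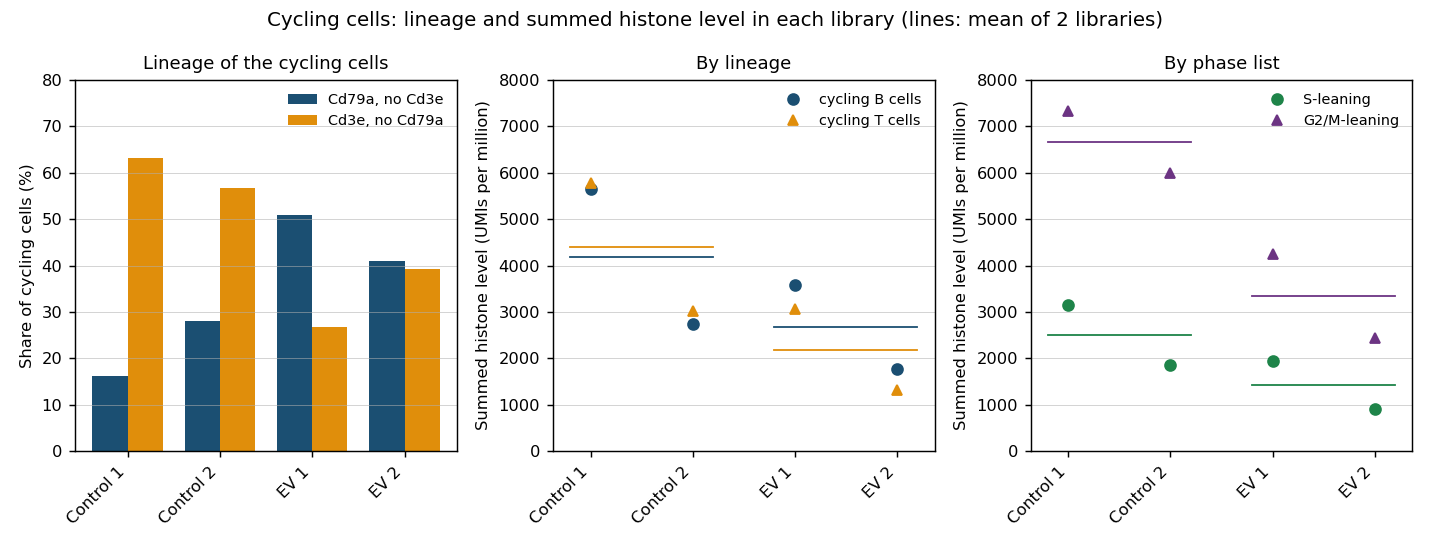
Left, share of cycling cells with Cd79a and no Cd3e or the reverse (y axis, percent) in each library; middle and right, summed level of the 67 histone genes (y axis, CPM) in cycling B and T cells and in S-leaning and G2/M-leaning cells, with lines at the means of 2 libraries. The Cd79a share was 16.3% and 28.0% in Control and 51.0% and 41.0% in EV libraries, and Control library 1 had the highest histone level in every subset.

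A few cells carried a large share of this mRNA, above 50% in the Control libraries. The 10 cells with the most histone UMIs held 61.5% and 67.5% of the histone UMIs of cycling cells in Control and 34.2% and 29.3% in EV libraries, against 1.60% to 3.94% in B cells. The 10 were out of 92 and 125 cycling cells in Control, 206 and 227 in EV, and 2417 to 4714 B cells. A share held by a fixed 10 cells falls as the class grows, so these shares are not on equal terms. In the cell with the highest share, histone UMIs were 2.92% to 4.43% of all UMIs over the 4 libraries. A value for cycling cells of 1 library thus rested on a small number of cells. Cells with at least 1% histone UMIs were 19.6% and 10.4% of cycling cells in Control and 4.37% and 0.44% in EV libraries. The remaining cycling cells had 2103 and 1443 CPM of histone mRNA in Control and 2875 and 1528 CPM for EV, which overlapped. This split used the histone level itself, so it describes the cells and is no test. With the study's own cell filter, which removes cells over 5000 genes or 20000 UMIs and so took out 18 and 27 cycling cells from Control and 89 and 117 from EV, the log2 difference of H4 became -2.32 and that of H1 -1.39.

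Cycling cells exceeded non-cycling cells of the same lineage and library for every type. The summed level over all 67 genes was 4.36 to 7.19 times higher in cycling B cells and 5.33 to 13.3 times higher in cycling T cells over the 4 libraries. By type, the mean ratio was highest for H2A, at 10.1 (SD 2.54, n = 4) in B cells and 19.6 (SD 9.56) in T cells. It was lowest for H2B in B cells, at 3.69 (SD 1.81), and for H4 in T cells, at 5.37 (SD 1.85). In the test with library as a block, 50 of 57 genes tested in B cells were called, 49 of them higher in cycling cells and 1 lower, where 25.9% and 23.5% of all genes tested were called so. In T cells 54 of 61 were called, 53 higher and 1 lower, against 19.9% and 20.3% of all genes tested. With the study's cell filter 25 of 52 were called in B cells (27.5% of all genes tested, in either direction) and 33 of 56 in T cells (13.6%). With every cell thinned to 1000 UMIs, 20 of 35 (15.5%) and 16 of 30 (7.95%) were called. Some of these genes could be tested only because cycling cells express them, so the counts describe the genes that passed and not all 67. The S phase list had 19 of 20 genes called higher in B cells and 20 of 20 in T cells.

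The size of this difference varied widely among genes. Hist1h1b was at 989, 657, 1291 and 589 CPM in cycling B cells (Control 1, Control 2, EV 1, EV 2) and at 44.9, 39.7, 26.5 and 14.1 CPM in non-cycling B cells, in unscaled CPM as in all contrasts between classes (log2 fold change 5.00, SE 0.19). In cycling T cells it was at 344 to 1267 CPM and in non-cycling T cells at 0.77 to 1.61 CPM (9.33, SE 0.14). Hist1h2ae had log2 fold changes of 4.79 (SE 0.14) in B cells and 6.19 (SE 0.17) in T cells. Hist1h1e (1.16 and 2.01), Hist1h2be (0.65 and 1.18) and Hist1h2bc (0.68 and 0.73) differed by less, though all were called higher in both lineages. Thinned to 1000 UMIs per cell, Hist1h2bc turned to -0.27 in B cells and -0.29 in T cells and Hist1h2be to -0.03 in T cells. Hist3h2a, an H2A gene outside chromosome 13 named after its values were seen, was called lower in cycling cells of both lineages (log2 fold change -0.90 in B cells with edgeR adjusted p = 0.0131, and -0.92 in T cells with 0.00734). Hist1h3g had 42 UMIs in cycling and 0 in non-cycling B cells, at least 219-fold higher against a floor of 3 UMIs over the 4 libraries, and Hist1h3b 39 and 0 UMIs in T cells, at least 283-fold higher, both chosen after their values were seen. The tested genes with a polyadenylation signal had a median log2 fold change of 1.67 in B cells (15 tested) and those without one a median of 3.24 (42 tested), beside a median of -0.06 for all genes tested.

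**Figure D5:**
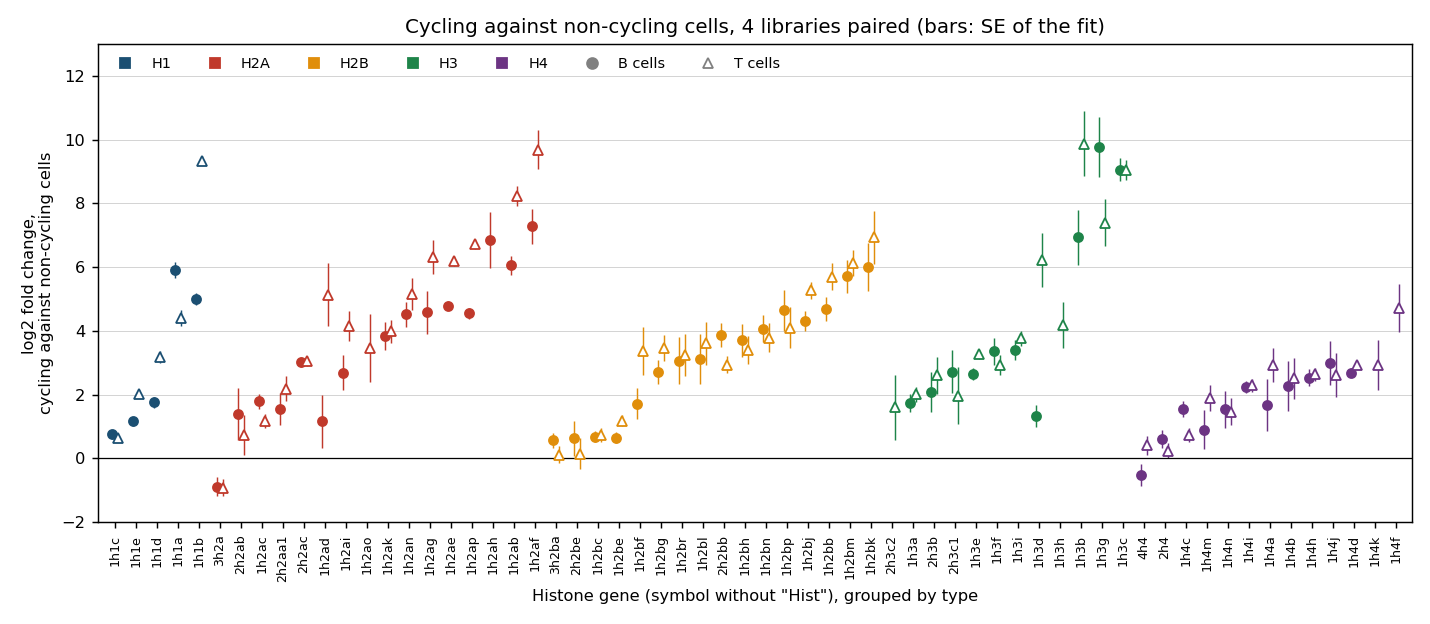
Log2 fold change of cycling against non-cycling cells (y axis, bars are the SE of the fit with library as a block) for the 62 histone genes tested in B cells (filled circles) or T cells (open triangles), by type (x axis). All but a few lie above 0; Hist3h2a lies below it in both lineages, and the fitted values of Hist1h3g in B cells and Hist1h3b in T cells rest on 0 UMIs in non-cycling cells.

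Within the cycling cells, those with more UMIs of 20 S phase genes than of 20 G2/M genes (S-leaning, 54, 87, 114 and 139 cells in Control libraries 1 and 2 and EV libraries 1 and 2) were set against the reverse (G2/M-leaning, 31, 32, 78 and 78 cells). No histone gene is in either list. Histone mRNA was higher in the G2/M-leaning cells of every library, with 7323, 5993, 4244 and 2450 CPM against 3141, 1859, 1939 and 905 CPM in the S-leaning cells. The ratio was 2.19 to 3.22 over the 4 libraries. Of 51 genes tested with library as a block, 38 were called lower in S-leaning cells and 0 higher, where 5.14% of all genes tested were called lower and 3.7% higher. Of the 10 replication-independent histone genes tested 7 were also called lower in S-leaning cells. Without the block 12 of 44 histone genes were called (3.64% of all genes tested), with the study's cell filter 22 of 23 (12.9%), and with every cell thinned to 1000 UMIs 9 of 10 (17.3%). Hist1h3e had a log2 fold change of -1.96 (SE 0.17), with 55.7, 38.1, 30.6 and 15.2 CPM in S-leaning and 228, 209, 102 and 40.6 CPM in G2/M-leaning cells. Hist1h1b (-1.21, SE 0.13) and Hist1h1e (-1.05, SE 0.12) differed less. The H4 sum was lower in both EV than in both Control libraries in S-leaning (475 and 224 against 169 and 89.9 CPM) and in G2/M-leaning cells (1284 and 886 against 462 and 219 CPM). G2/M-leaning cells had median depths of 12611 to 26258 UMIs over the 4 libraries, and S-leaning cells 8371 to 17355. The gate on Mki67 and Top2a itself takes genes that are known to be highest in G2 and mitosis, and its part was not tested, while 21 to 29 cells per library lay within 1 UMI of the line between the sets. The lists also differ in resting level: in non-cycling B cells they summed to 320 to 340 CPM (S) and 43.6 to 53.0 CPM (G2/M). A cell with little of either program would thus tend to count as S-leaning, and this was not tested. The order is not that of the known accumulation in S phase, and the sets were not taken as measured phases.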

How the data were processed

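Draining lymph node cells of 2 Control and 2 EV mouse libraries were profiled with a 3′ droplet chemistry, and the authors deposited raw UMI counts per gene and cell from Cell Ranger 7.1.0 on mm10, the build named in the submitters' processing notes. Neither the gene annotation release nor the setting for intronic reads is given in the sources used here. Replicates are separate samples by the labels. In the EV comparisons p-values rest on the spread between the libraries of a group, as edgeR moderates it over genes. With the library as a block they rest on how differences within a library vary over the libraries.

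Cells with at least 200 genes and under 10% mitochondrial UMIs were kept, and no doublet caller was run. Counts were summed per library and class, as the gates in the report define. EV was compared with Control in each class with edgeR 4.0.16 (R 4.3.3, TMM scaling, filterByExpr, quasi-likelihood test, two-sided, Benjamini-Hochberg adjusted p under 0.05 over all genes tested). Contrasts between classes and their differences had the library as a block. DESeq2 1.42.0 was an alternative, as were no filter, a replicate block, the study's cell filter, thinning to 1000 UMIs, a cycling gate of 4 UMIs and leaving out each library. Cycling B and cycling T cells alone were added after the data were seen. Sums over types are plain CPM (UMIs per 1000000 UMIs of the class), and single-gene CPM in the EV comparisons are TMM-scaled.

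The genes, lists and classes were chosen with earlier results of these data known. Histone genes named with EV values are those called in an EV comparison and the 2 of each type with the most UMIs. Other histone genes were named for their annotation or number of UMIs, or are said to be chosen after their values were seen. Stem-loops were searched in GENCODE M21 transcripts as 16-base matches, and promoters were RefSeq's on GRCm38.p6. On simulated counts, the CD4 T cell test recovered 78.6% of 2-fold and 96.0% of 4-fold changes (11648 genes), and the cycling cell test 49.5% and 85.6% (10596 genes). Of the genes left unchanged in the simulation, the CD4 T cell test called 19 and the cycling cell test 16. Genes were drawn independently there, without shifts of a whole library, and the EV comparison in B cells was not simulated. Zcchc6 and Zcchc11 of the processing list were not matched in the count tables. The summed level of the B cell marker list is not reported here.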

Additional observations from a re-analysis of the deposited data

How the results depend on the processing

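The number of histone genes called depended on the fit more than their direction did. Against 4 in B cells, 0 in CD4 T cells, 1 in CD8 T cells and 0 in cycling cells (376, 57, 166 and 344 of all genes), testing without filterByExpr called 23, 7, 10 and 20 (1415, 665, 829 and 1411 of all genes). DESeq2 called 1 in CD4 T cells (138 of all genes) and 1 in cycling cells. Thinning called 1 in CD4 T cells and 1 in cycling cells, with 185 of all genes in B cells, 91 in CD8 T cells and 30 in cycling cells. The study's cell filter left 29 of all genes called in cycling cells, a gate of 4 UMIs called 12 histone genes and 679 of all genes, and cycling B and T cells alone, chosen after seeing the data, gave 15 and 6 of all genes. The difference between cycling and B cells was called for 2 histone genes without filterByExpr. The share of all genes called is given neither for that fit nor for thinned CD4 T cells. Their histone counts are thus not read against a background. In the class contrasts the study's filter called 25 (B), 33 (T) and 22 (S-leaning), and thinning 20, 16 and 9. The cause of these changes was not tested.

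With the replicate block the counts were 16, 7, 9 and 19 histone genes in B, CD4 T, CD8 T and cycling cells (987, 452, 1026 and 909 of all genes), and with no replicate block the S-leaning contrast called 12. The numbers are only shared names: the deviations of same-numbered libraries correlated across genes at -0.0452, 0.0176, 0.0961 and 0.12, so they were not taken as pairs.

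Leaving out 1 library gave 1 to 20 histone genes called in B cells, 0 to 10 in CD4 T, 1 to 7 in CD8 T and 0 to 13 in cycling cells, and 129 to 2586, 6 to 1421, 64 to 1432 and 0 to 514 of all genes. A group of 1 library is then assumed to vary like the other. The cycling contrasts gave 39 to 48 (B), 48 to 53 (T) and 28 to 36 (S-leaning). The shares of all genes called in these contrasts are not given, so their counts are not read against a background. Log2 ratios of type sums ran, for H1, H2A, H2B, H3 and H4, from -1.14 to -0.57, -1.01 to -0.45, -0.18 to 0.04, -1.36 to -0.87 and -1.38 to -0.63 in B cells. In CD4 T cells they ran from -0.67 to -0.27, -0.72 to -0.32, -0.14 to 0.14, -1.02 to -0.38 and -1.42 to -0.81. In CD8 T cells they ran from -0.64 to -0.19, -0.62 to -0.13, -0.13 to 0.10, -0.72 to -0.26 and -1.15 to -0.54. In cycling cells they ran from -1.10 to 0.0229, -1.68 to -0.51, -1.05 to -0.0729, -1.42 to -0.45 and -2.11 to -0.82. Signs turned for Hist1h2bc in B cells (-0.19 to 0.41), Hist1h4i in B (-0.38 to 0.13), CD4 T (-0.29 to 0.23), CD8 T (-0.21 to 0.14) and cycling cells (-0.21 to 0.74), Hist1h2be in CD4 T (-0.0688 to 0.29), CD8 T (-0.0468 to 0.36) and cycling cells (-0.63 to 0.0096), and Hist1h1b in cycling cells (-0.997 to 0.18).

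Other settings turned the sign of these values, among them Hist1h2bc in cycling cells, at 0.93 before. The study's filter turned Hist1h4i in CD8 T cells to 0.0114 and, in cycling cells, Hist1h2bc to -0.0178, Hist1h3a to -0.96 and Hist1h4i to -0.67. The gate of 4 UMIs gave -0.13 for Hist1h3a and -0.0241 for Hist1h4i, cycling B cells alone 0.23 for Hist1h1b, -0.25 for Hist1h3a and -0.13 for Hist1h4i, and cycling T cells alone -0.16 for Hist1h4i. Cycling against resting B cells gave Hist1h2bc -0.25 and Hist1h2be -0.12 under the study's filter and Hist1h2bc -0.27 when thinned, and T cells -0.29 and -0.0333 when thinned. Thinning turned H2B in CD4 T cells to 0.26 and moved H3 in CD8 T cells to -0.83, and the study's filter moved H1, H2A, H2B, H3 and H4 of cycling cells to -1.39, -2.20, -1.58, -2.09 and -2.32. Of 939 other values for named genes, 769 kept direction and side of the threshold.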
